A study of Mus musculus with 9 samples.

Results

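Small leucine-rich proteoglycans (SLRPs) are secreted proteins of the dermis and other connective tissues, and 10 genes that encode them are described here in the back skin of mice. The genes were taken by symbol, namely Dcn, Bgn, Aspn, Lum, Fmod, Prelp, Omd, Kera, Ogn and Epyc. The rule that picks them uses no measured value, although the family was chosen with earlier results of these data known. Each had 1 row among the 34637 genes of the deposited FPKM table, and its identifier led to 1 row among the 55401 genes of the count table. All 10 passed the filter on low counts, and the lowest count of any of them in any library was 8.

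Back skin RNA was sequenced from 9 libraries, to ask which transcripts differ when an atopic dermatitis-like inflammation is treated with Fangji dihuang formulation (FJDHF), a decoction of 5 botanical drugs. Every mouse was a male C57BL/6 mouse of 6 to 8 weeks, and both groups received dinitrochlorobenzene (DNCB), a small reactive molecule that raises a contact allergy when it is painted on shaved skin. DNCB was given as 200 µl at 1% on day 1 and as 100 µl at 0.5% from day 4 to day 21, and skin was taken on day 28. The 5 mice of the FJDHF group had the formulation by mouth each day after day 7, at the study's medium dose, and the 4 mice of the Model group had water. Both groups are skin painted with DNCB, and unpainted skin and other doses were not analysed here. The 5 columns coded MR were read as the FJDHF group and the 4 columns coded MXL as the Model group, an assignment inferred from the numbers of columns and from the code, and every direction below rests on it.

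The core protein of an SLRP is a curved array of leucine-rich repeats that lies against collagen fibrils and sets their diameter and spacing. Chains of chondroitin, dermatan or keratan sulfate are attached to many of them, and several bind growth factors of the TGF-beta family in the matrix. In skin they are made mainly by dermal fibroblasts, and loss of decorin gives fragile skin with uneven fibrils. The family is sorted into classes by the spacing of 4 cysteines that stand before the repeats.

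That spacing was read from the coding sequences of the 10 genes, because it gives the order in which they are described. The stretch from the first to the last of these cysteine codons is shown 5′ to 3′, from the GENCODE M21 transcripts, with the 4 cysteine codons in capitals.
Dcn: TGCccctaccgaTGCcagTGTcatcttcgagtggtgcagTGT
Bgn: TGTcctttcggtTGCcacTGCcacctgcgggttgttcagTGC
Aspn: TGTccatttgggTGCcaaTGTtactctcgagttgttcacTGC
Lum: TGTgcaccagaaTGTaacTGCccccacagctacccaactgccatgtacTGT
Fmod: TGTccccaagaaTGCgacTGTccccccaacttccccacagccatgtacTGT
Prelp: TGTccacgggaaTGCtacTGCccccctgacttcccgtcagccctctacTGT
Omd: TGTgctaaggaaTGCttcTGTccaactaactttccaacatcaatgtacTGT
Kera: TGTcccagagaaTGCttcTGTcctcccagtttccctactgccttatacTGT
Ogn: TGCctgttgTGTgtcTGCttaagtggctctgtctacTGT
Epyc: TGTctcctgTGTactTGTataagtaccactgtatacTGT

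Dcn, Bgn and Aspn share 1 spacing, with 42 bases from the first codon to the last. Lum, Fmod, Prelp, Omd and Kera share a second, with 51 bases, in which the last gap is longer. Ogn and Epyc share another, with 39 bases, in which the first gap is 1 codon shorter. Serine codons followed at once by a glycine codon, the pair to which chondroitin or dermatan sulfate can be attached, numbered 4 in Bgn, 2 in Dcn and in Lum, 1 in Aspn, Ogn and Epyc, and 0 in Fmod, Prelp, Omd and Kera. These counts thus differed within the spacing groups. The longest run of aspartate codons was 4 in Aspn, the gene of asporin, which is named for its aspartate run, and at most 3 in the others. The longest stretch that any pair of these transcripts had in common was 40 bases, between Dcn and Bgn, and all other pairs had at most 16.

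The genes lie in 4 places of the mouse genome build GRCm38, and their positions in the FPKM table are the same as those in GENCODE M21. On chromosome 10 and the plus strand stand Dcn (97479609 to 97518143, 8 exons), Lum (97565128 to 97572703, 3 exons), Kera (97606879 to 97613692, 3 exons) and Epyc (97644068 to 97682454, 8 exons). Chromosome 13 holds Aspn (49544443 to 49567565, 8 exons), Omd (49582462 to 49592822, 3 exons) and Ogn (49608046 to 49624501, 7 exons), also on the plus strand. On chromosome 1 stand Prelp (133910304 to 133921414, minus strand) and Fmod (134037254 to 134048277, plus strand), with 3 exons each. Bgn stands alone on chromosome X (73483602 to 73495933, plus strand, 8 exons). Aspn, Omd and Ogn lie within the span of Cenpp, a centromere gene of the opposite strand that had 150 to 457 counts per library, and an exon of it overlaps Aspn. An antisense gene overlapping Prelp had 0 to 2 counts, and a noncoding gene overlapping Epyc had 0.

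Total counts per library lay between 74648669 and 79474215. At this depth 3 counts, taken as the floor of detection, were 0.0377 to 0.0402 CPM, a measure of a gene's counts relative to the depth of its library. Pairs of libraries within a group had counts too far apart for sampling noise (chi-square per degree of freedom 136.4 to 605.3), and none was counted as a copy. The tissue was checked against markers of 14 cell types. All 10 dermal fibroblast markers and all 5 basal keratinocyte markers were found, and none was at the floor in all 9 libraries. Neutrophil markers were highest in MXL12 of the Model group (score 6.04, others 1.84 to 4.22), which also had the lowest skeletal muscle score. MXL_3, also of the Model group, had the highest skeletal muscle and dermal fibroblast scores, 10.8 and 7.73 as means of log2(CPM + 0.5). Values without these libraries are given beside the group differences.

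Levels of different genes were compared in FPKM, in which counts are divided by a gene's length and depth. The lengths behind the deposited values were not examined, and the order of genes in FPKM depends on them. Together the 10 genes summed to between 1326 FPKM in MR4_5 and 2729 FPKM in MXL12, and took 0.555% to 1.13% of all counts. Lum and Dcn were the leading members, with medians over the 9 libraries of 662 and 617 FPKM. In FPKM Lum was the higher of this pair in 6 of 9 libraries. Dcn nevertheless had more counts than Lum in every library, with a median of 3778 CPM against 1723. The transcripts read here had 1758 bases for Dcn and 2448 for Lum, so the order of this pair in FPKM rests on the lengths used. Dcn exceeded Aspn (median 409.5 FPKM) in 9 of 9 libraries. Aspn exceeded Bgn (269.9 FPKM) in 7 of 9. By counts Bgn was above Aspn in every library, with a median of 1709 CPM against 1020. Their transcripts had 2419 and 2310 bases, so this order too rests on the lengths used for FPKM. Bgn exceeded Ogn (189.8 FPKM), and Ogn exceeded Prelp (49.1 FPKM), in 9 of 9. Prelp exceeded Omd (19.2 FPKM) in 9 of 9, Omd exceeded Fmod (8.91 FPKM) in 8 of 9, and Fmod exceeded Kera (5.31 FPKM) in 7 of 9. Epyc was last in every library, with a median of 0.0911 FPKM.

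**Figure D1:**
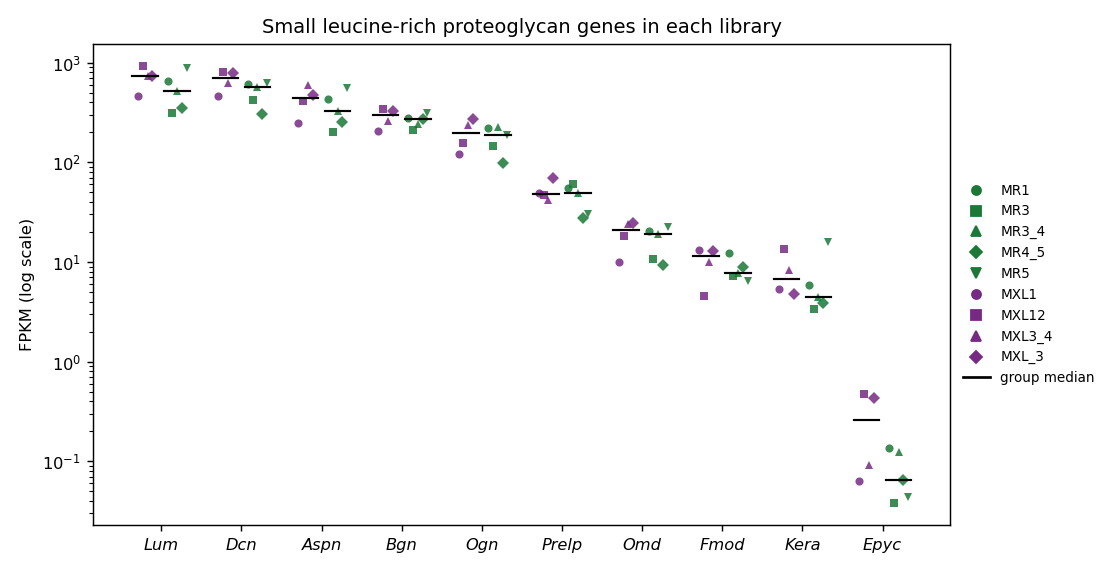
Level of each of the 10 genes in each library, in FPKM on a log axis, with green symbols for the FJDHF group (MR, n = 5), purple symbols for the Model group (MXL, n = 4) and a black bar at each group's median. The genes are ordered by their median over 9 libraries, from Lum at 662 FPKM to Epyc at 0.0911 FPKM, and green and purple symbols overlap in each gene.

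Across all genes, edgeR's quasi-likelihood test called 0 of 20817 genes between the groups (0%) at a Benjamini-Hochberg adjusted p under 0.05 with a fold of at least 2, while DESeq2's Wald test called 2. The count at an unadjusted p under 0.05 was 326 genes (1.57%) with edgeR and 460 with DESeq2. None of the 10 SLRP genes was called, and each had an adjusted p of 1. Before adjustment 1 of 10, Epyc, had a p under 0.05 and was lower in the FJDHF group, as were 0.793% of all tested genes at that threshold and 0.773% in the other direction. All 10 had a lower fitted level in the FJDHF group, as did 55.9% of all tested genes. Their median log2 fold change was -0.28, and that of all tested genes was -0.03. In 0.514% of all genes the groups did not overlap, and the 10 SLRP genes held 0 such genes. Fewer cells of a type and less RNA per cell cannot be told apart in such bulk tissue. Many of the members vary together across libraries, Fmod and Prelp less so, as described below. The 10 lower values are therefore not 10 separate observations.

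**Figure D2:**
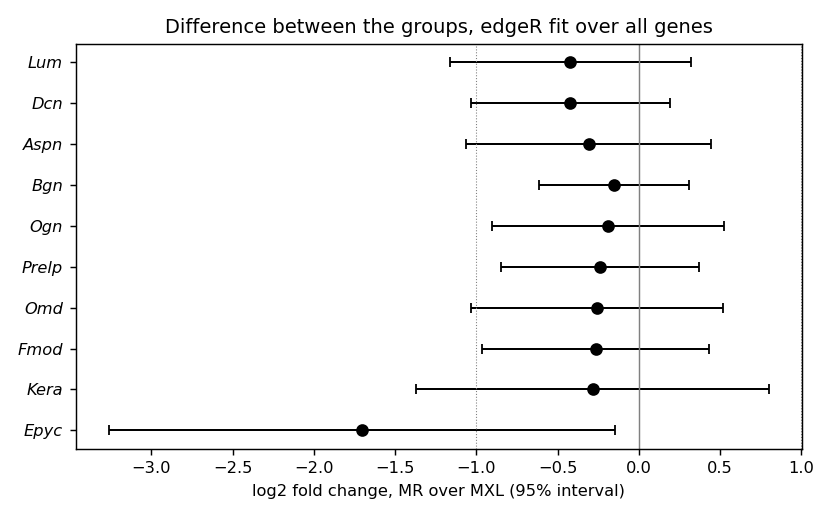
Log2 fold change of each gene, FJDHF group over Model group, from edgeR's fit over all 20817 genes (points), with 95% intervals (bars) and dotted lines at a fold of 2. All points lie below 0, and the interval of each gene other than Epyc includes 0.

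Decorin, encoded by Dcn (ENSMUSG00000019929), is the member that decorates type I collagen fibrils and holds TGF-beta. In the FJDHF group Dcn stood at 617 FPKM in MR1, 422 in MR3, 565 in MR3_4, 302 in MR4_5 and 629.9 in MR5. In the Model group it stood at 464 FPKM in MXL1, 804 in MXL12, 620.2 in MXL3_4 and 780.1 in MXL_3. In FPKM MXL12 and MXL_3 lay above all FJDHF libraries, MR3 and MR4_5 lay below all Model libraries, and the other 5 libraries overlapped. In CPM MXL3_4 (3883) also lay above the highest FJDHF library, MR1 (3828). The means were 3104 ± 910.6 CPM (SD, n = 5) and 4158 ± 1055 CPM (SD, n = 4). The log2 fold change was -0.42 (standard error 0.28, 95% interval -1.03 to 0.19, unadjusted p = 0.157 from edgeR), and the exact permutation test gave p = 0.183. With 1 library left out the fitted value ran from -0.57 without MXL1 (unadjusted p = 0.0614, edgeR) to -0.28 without MR4_5 (unadjusted p = 0.305, edgeR). Dcn alone took 0.186% to 0.493% of all counts and ranked between 31 and 100 among all genes by FPKM.

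Biglycan, encoded by Bgn (ENSMUSG00000031375), is the closest relative of decorin and, when released from the matrix, a ligand of Toll-like receptors. Bgn stood at 277 FPKM in MR1, 212 in MR3, 245 in MR3_4, 269.9 in MR4_5 and 312 in MR5. It stood at 205 FPKM in MXL1, 347 in MXL12, 261 in MXL3_4 and 331 in MXL_3. The Model group held both the highest and the lowest library, so the FJDHF values lay inside its range. Bgn had the smallest spread of the 10 genes, with a coefficient of variation of 18.2% in FPKM over the 9 libraries. Between the groups Bgn differed by a log2 fold change of -0.15 (standard error 0.21, 95% interval -0.61 to 0.31, unadjusted p = 0.482 from edgeR), and with 1 library left out it ran from -0.29 without MXL1 to -0.05 without MXL12.

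Asporin, encoded by Aspn (ENSMUSG00000021388), binds collagen and TGF-beta and carries no glycosaminoglycan chain. Aspn ranged from 203 FPKM in MR3 to 559.5 in MR5 within the FJDHF group, and from 248 in MXL1 to 593 in MXL3_4 within the Model group. The means were 874 ± 353 CPM (SD, n = 5) and 1082 ± 376.5 CPM (SD, n = 4), and the groups overlapped over most of their range. Between the groups the log2 fold change of Aspn was -0.31 (standard error 0.34, 95% interval -1.06 to 0.45). With 1 library left out it ran from -0.52 without MR5 to -0.11 without MXL3_4, and it was -0.51 without MXL1 and -0.16 without MR3.

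Lumican, encoded by Lum (ENSMUSG00000036446), carries keratan sulfate and limits the thickness of fibrils in skin and cornea. In the FJDHF group Lum stood at 662 FPKM in MR1, 311 in MR3, 515.5 in MR3_4, 352 in MR4_5 and 889.9 in MR5. In the Model group it stood at 468 FPKM in MXL1, 930.1 in MXL12, 738 in MXL3_4 and 733 in MXL_3. MR5 was the second highest of all 9 libraries, while MR3 and MR4_5 were the lowest 2, so the FJDHF group spanned most of the range. The log2 fold change was -0.42 (standard error 0.33, 95% interval -1.16 to 0.32, unadjusted p = 0.234 from edgeR). By edgeR it was -0.66 without MR5 (unadjusted p = 0.0664) and -0.28 without MR3 (unadjusted p = 0.406).

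Fibromodulin, encoded by Fmod (ENSMUSG00000041559), binds the same site on type I collagen as lumican and is most abundant in tendon. Fmod stood at 6.52 to 12.4 FPKM in the FJDHF group, lowest in MR5 and highest in MR1. In the Model group it stood at 4.56 FPKM in MXL12 and at 9.91 to 13.1 in the other 3. MXL12, which was the highest library for Lum, was thus the lowest for Fmod. Fmod had a log2 fold change of -0.27 (standard error 0.31, 95% interval -0.96 to 0.43). By edgeR it was -0.51 without MXL12 (unadjusted p = 0.0611), -0.14 without MXL1 (unadjusted p = 0.693) and -0.10 without MXL_3 (unadjusted p = 0.763).

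Prolargin, encoded by Prelp (ENSMUSG00000041577), has a basic N-terminal region that binds heparan sulfate and is thought to anchor basement membranes to the matrix. Prelp stood at 55.6 FPKM in MR1, 61.0 in MR3, 49.3 in MR3_4, 27.8 in MR4_5 and 30.6 in MR5. It stood at 49.1 FPKM in MXL1, 47.0 in MXL12, 42.3 in MXL3_4 and 69.7 in MXL_3. MR4_5 and MR5 were below all other libraries and MXL_3 above all others. MR3, which was low for Dcn, Lum and Aspn, was the second highest for Prelp. For Prelp the log2 fold change was -0.24 (standard error 0.27, 95% interval -0.85 to 0.37). With 1 library left out it ran from -0.38 without MR3 to -0.05 without MXL_3.

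Osteomodulin, encoded by Omd (ENSMUSG00000048368), is an acidic keratan sulfate member best known from bone. Omd ranged from 9.32 to 22.4 FPKM in the FJDHF group and from 10.1 to 24.6 FPKM in the Model group. MR3, MR4_5 and MXL1 stood at 9.32 to 10.7 FPKM, and the other 6 libraries stood higher. The low libraries thus came from both groups. Omd had a log2 fold change of -0.26 (standard error 0.35, 95% interval -1.03 to 0.52). With 1 library left out it ran from -0.48 without MXL1 to -0.10 without MXL_3.

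Keratocan, encoded by Kera (ENSMUSG00000019932), is the keratan sulfate member of the corneal stroma. Kera stood at 5.94 FPKM in MR1, 3.35 in MR3, 4.44 in MR3_4, 3.92 in MR4_5 and 15.8 in MR5. It stood at 5.31 FPKM in MXL1, 13.5 in MXL12, 8.28 in MXL3_4 and 4.82 in MXL_3. MR5 stood apart from the rest of the FJDHF group, and MXL12 was the highest library of the Model group. A log2 fold change of -0.29 was fitted for Kera (standard error 0.49, 95% interval -1.37 to 0.80, unadjusted p = 0.573 from edgeR). Its direction and size rested on these libraries, since by edgeR it was -0.87 without MR5 (unadjusted p = 0.0373) and 0.09 without MXL12 (unadjusted p = 0.867).

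Osteoglycin, encoded by Ogn (ENSMUSG00000021390) and also called mimecan, is a short member that takes part in fibril growth. Ogn stood at 221 FPKM in MR1, 145 in MR3, 226 in MR3_4, 99.4 in MR4_5 and 189.8 in MR5. It stood at 122 FPKM in MXL1, 156 in MXL12, 238.5 in MXL3_4 and 273 in MXL_3. Only MR4_5 lay below all Model libraries. For Ogn the log2 fold change was -0.19 (standard error 0.32, 95% interval -0.90 to 0.52). With 1 library left out it ran from -0.37 without MXL1 to 0.03 without MXL_3.

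Epiphycan, encoded by Epyc (ENSMUSG00000019936), is the member of growth plate cartilage, and its skin level was the lowest of the family. Epyc had 28 counts in MR1, 8 in MR3, 26 in MR3_4, 14 in MR4_5 and 9 in MR5. It had 14 counts in MXL1, 97 in MXL12, 20 in MXL3_4 and 88 in MXL_3. MXL12 and MXL_3 therefore carried most of the counts, while MXL1 and MXL3_4 lay within the FJDHF range. The log2 fold change was -1.71 (standard error 0.70, 95% interval -3.26 to -0.15, unadjusted p = 0.0349 and adjusted p = 1 by edgeR), and the exact permutation test gave p = 0.135. That test used log2(CPM + 0.5), and the median of Epyc, 0.258 CPM, lies below the added 0.5, which shrinks its differences. The difference tested was -0.65, and with 0.1 added instead it was -1.1 (exact permutation p = 0.143). By edgeR the log2 fold change was -1.29 without MXL12 (unadjusted p = 0.121), -1.35 without MXL_3 (unadjusted p = 0.108) and 0.04 without both (unadjusted p = 0.962). MXL12 and MXL_3 were set aside because of their neutrophil and muscle scores, and they were also the libraries with the highest Dcn and Epyc. For Epyc the value near 0 without both was thus built into that choice.

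Without both of these libraries the other log2 fold changes moved toward 0 in 8 of 9 genes or past it. They were then -0.10 for Dcn, 0.16 for Bgn, -0.26 for Aspn, -0.16 for Lum, -0.43 for Fmod, -0.03 for Prelp, -0.07 for Omd, -0.05 for Kera and -0.04 for Ogn. Fmod alone moved away from 0. Only 2 Model libraries remained in this fit, so its precision is low. MXL12 and MXL_3 had the highest Dcn and Bgn of all libraries. Either MXL12 or MXL_3 was the highest Model library for Lum, Prelp, Omd, Kera and Ogn. For these genes a move toward 0 was thus built into the choice of libraries, which was made after the data were seen.

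The 10 genes did not move as 1 block across libraries. With the levels set as log2(CPM + 0.5) around each gene's mean, MR3 was below the mean in 9 genes and above it for Prelp alone, and MR4_5 was below it in all 10. MXL_3 was above the mean in 9 genes, with Kera as the exception. MXL1 was below the mean for all but Fmod and Prelp.

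**Figure D3:**
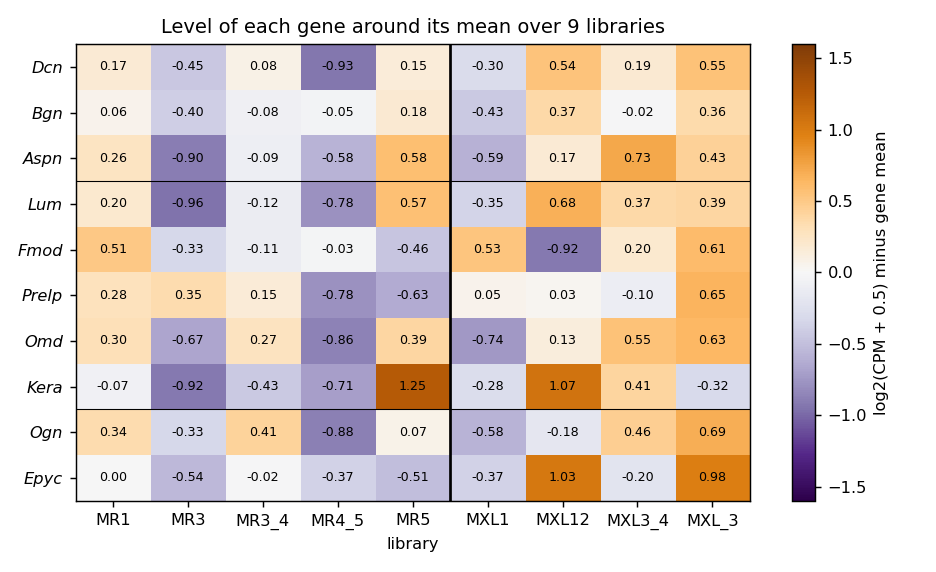
Level of each gene in each library as log2(CPM + 0.5) minus the gene's mean over 9 libraries, with orange above and purple below the mean. Rows are grouped by cysteine spacing and columns by group (MR, then MXL). MR4_5 is below the mean in all 10 rows, Prelp is above the mean in MR3 where the other 9 rows are below it, and Fmod is the lowest row in MXL12.

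Correlations of log2(CPM + 0.5) over the 9 libraries describe this grouping, and since the points share libraries, depth and scaling they are given without a test. Dcn and Lum, neighbours on chromosome 10 that differ in cysteine spacing, gave a Pearson r of 0.89 and a Spearman rho of 0.85, with r = 0.86 after the group means were taken out. Lum and Aspn gave r = 0.91 (rho = 0.77) and Lum and Kera r = 0.85 (rho = 0.85). On chromosome 13 Omd gave r = 0.93 with both Ogn (rho = 0.93) and Aspn (rho = 0.87), and Ogn gave r = 0.76 with Aspn (rho = 0.73). Without the 2 libraries farthest from the median, r for Omd was 0.83 with Ogn and 0.93 with Aspn, and r for Ogn with Aspn was 0.615. Omd gave r = 0.87 with Dcn (rho = 0.80) and 0.85 with Lum (rho = 0.65). Bgn gave r = 0.80 with Lum (rho = 0.88). Dcn gave r = 0.79 with Ogn (rho = 0.77) and 0.77 with Aspn (rho = 0.73). Without the 2 farthest libraries, r for Lum was 0.81 with Dcn, 0.80 with Bgn, 0.79 with Aspn, 0.78 with Kera and 0.66 with Omd. For Dcn it was then 0.71 with Omd, 0.60 with Aspn and 0.53 with Ogn. Over all 9 libraries, pairs with Fmod or Prelp were weaker. Fmod gave r = -0.05 with Dcn (rho = 0.15) and -0.47 with Kera (rho = -0.23), and its highest r with any of the others was 0.37, with Prelp. Prelp gave r = 0.55 with Ogn (rho = 0.42), 0.50 with Dcn (rho = 0.28), 0.49 with Epyc (rho = 0.30), 0.08 with Lum (rho = -0.13) and 0.01 with Aspn (rho = -0.20). Kera gave r = 0.23 with Ogn (rho = 0.27).

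Aspn, Omd and Ogn are neighbours that varied together. Covariation was not particular to neighbours, since Lum and Aspn (r = 0.91) and Dcn and Omd (r = 0.87) lie on different chromosomes. The neighbours Kera and Epyc gave r = 0.26 (rho = 0.32). For the chromosome 13 genes the 250 bases before the start sites are shown, from the RefSeq promoter table (GRCm38.p6, plus strand, 5′ to 3′). Capitals mark matches, on either strand, to the motifs spelled out in the paragraph that follows, and matches that overlap run together.
Aspn, chr13:49544193-49544442: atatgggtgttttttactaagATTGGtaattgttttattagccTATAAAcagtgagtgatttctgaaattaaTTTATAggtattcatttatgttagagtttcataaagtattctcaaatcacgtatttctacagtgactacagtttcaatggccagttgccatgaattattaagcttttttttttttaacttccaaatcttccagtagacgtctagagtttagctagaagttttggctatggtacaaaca
Omd, chr13:49582212-49582461: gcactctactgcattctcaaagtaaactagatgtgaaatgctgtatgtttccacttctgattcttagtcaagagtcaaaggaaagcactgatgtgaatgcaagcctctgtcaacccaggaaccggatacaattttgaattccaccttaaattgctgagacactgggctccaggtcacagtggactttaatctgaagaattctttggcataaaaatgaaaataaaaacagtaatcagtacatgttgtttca
Ogn, chr13:49607765-49608014: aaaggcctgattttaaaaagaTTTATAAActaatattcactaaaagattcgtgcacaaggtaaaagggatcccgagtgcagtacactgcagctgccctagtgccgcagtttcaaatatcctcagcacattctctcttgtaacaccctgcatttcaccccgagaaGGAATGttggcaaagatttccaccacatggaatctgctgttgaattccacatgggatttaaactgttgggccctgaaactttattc

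The motif counts below cover the table's whole windows of 300 bases, of which it held 32851 over all genes and 9 for 8 of the 10 SLRP genes, without Dcn and Lum. TATAAA, the sequence of the TATA box, was found in 13.6% of all windows and in those of Aspn and Ogn. Matches were counted anywhere in a window. In Aspn and Ogn they lie toward the far end of the 250 bases, away from the start site, so no working TATA box is shown. CCAAT was found in 37.4% of all windows and in those of Aspn, Prelp, Fmod and Kera. GGGCGG, bound by Sp1, was found in 35.7% of all windows and in that of Bgn. CATTCC, bound by TEAD factors, was found in 14.7% of all windows and in those of Epyc and Ogn. TGANTCA, bound by AP-1, was found in 7.81% of all windows and in 0 of the 9. None of these motifs was shared by all 3 of the chromosome 13 genes, and the window of Omd held none of them. The 250 bases were 30.0% G and C in Aspn, 38.4% in Omd and 42.0% in Ogn.

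To compare the makeup of the family apart from its total, each gene was divided by Dcn in the same library. Lum stood at 73.7% to 141.3% of Dcn in FPKM, Aspn at 48.0% to 95.6% and Ogn at 19.4% to 40.1%. The size of these percentages rests on the lengths used for FPKM. In CPM, which takes no account of length, the medians were 3778 for Dcn, 1723 for Lum, 1020 for Aspn and 500.4 for Ogn. Bgn stood at 42.1% to 44.1% of Dcn in the 4 Model libraries. In the FJDHF group Bgn was 45.0% of Dcn in MR1, 50.2% in MR3, 43.4% in MR3_4, 89.3% in MR4_5 and 49.6% in MR5. All FJDHF libraries but MR3_4 lay above all Model libraries. The mean log2 ratio was -0.91 ± 0.42 (SD, n = 5) in the FJDHF group and -1.22 ± 0.03 (SD, n = 4) in the Model group, a difference of 0.31 (two-sided exact permutation test, p = 0.0635). This was the smallest p among the 9 ratios compared and missed the threshold. With 1 library left out, the exact permutation p was 0.0286 without MR3_4 and 0.0571 without each of the other FJDHF libraries. It was 0.214 without MXL1 and 0.232 without each of the other Model libraries. MR3_4 was the only FJDHF library within the Model range. Leaving it out thus separated the groups, and 0.0286 is the smallest p that 4 against 4 libraries allow. Without MR4_5 the difference in log2 ratio was 0.13. With CPM in place of FPKM the difference for Bgn over all libraries was 0.31 (exact permutation p = 0.0635). Apart from Epyc, Fmod spanned the widest range, from 0.569% of Dcn in MXL12 to 2.95% in MR4_5, and its ratio differed between the groups by 0.25 (exact permutation p = 0.651).

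**Figure D4:**
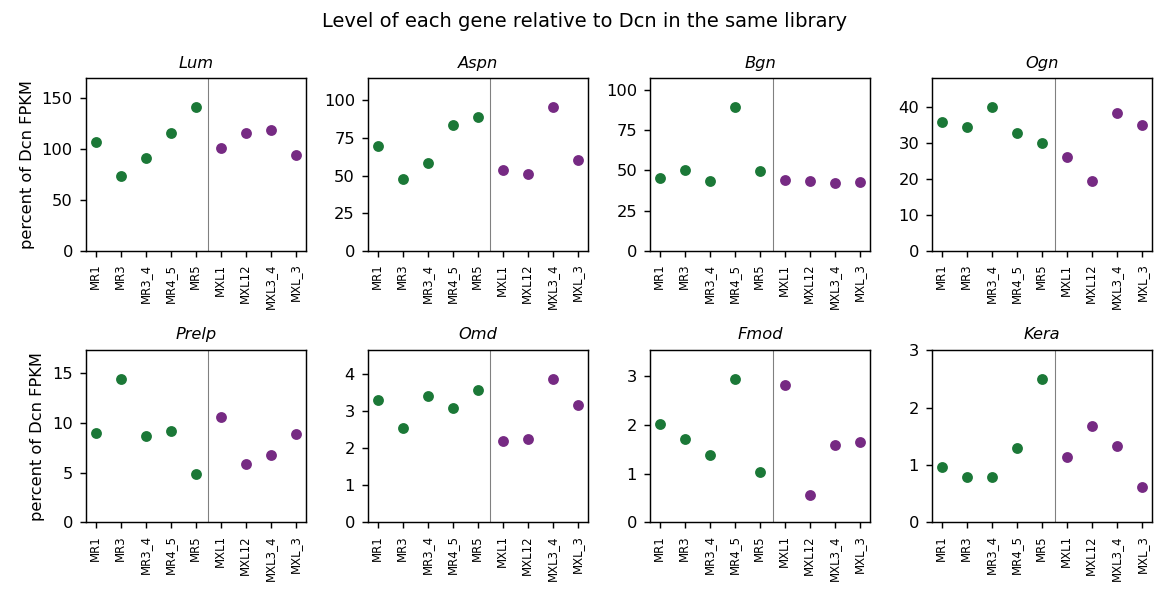
FPKM of 8 genes as a percentage of the FPKM of Dcn in the same library, with the FJDHF group (MR, green) left and the Model group (MXL, purple) right of the line, and axes that start at 0. Bgn lies between 42.1% and 44.1% in the Model libraries and at 89.3% in MR4_5.

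Other genes of SLRP biology were taken from lists, and their counts are set beside the background above. Of 8 further SLRP genes 3 were higher and 5 lower in the FJDHF group, with a median log2 fold change of -0.23 and 0 at an unadjusted p under 0.05. The smallest p belonged to Optc, the opticin gene (-0.83 ± 0.43, standard error, unadjusted p = 0.0836 from edgeR), and Ecm2, the neighbour of Aspn (-0.43 ± 0.28, standard error, unadjusted p = 0.15 from edgeR). Of 12 collagen genes whose fibrils SLRPs bind, 4 were higher and 8 lower, with a median of -0.20. Col3a1, type III collagen of skin, had 9937 CPM in the FJDHF group and 14780 CPM in the Model group, a log2 fold change of -0.57 (unadjusted p = 0.0416, adjusted p = 1, edgeR). Col1a2, a chain of type I collagen, had -0.54 (unadjusted p = 0.0575, edgeR).

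Of 26 tested genes that build chondroitin, dermatan or keratan sulfate chains, 7 were higher and 19 lower, with a median of -0.14. None had an unadjusted p under 0.05, and the smallest belonged to the sulfotransferase gene Chst11 (-0.46, unadjusted p = 0.129) and the galactosyltransferase gene B4galt4 (-0.27, unadjusted p = 0.143, edgeR). Of 21 genes for enzymes that crosslink collagen or cleave matrix, 3 were higher and 18 lower, with a median of -0.14. Mmp3, stromelysin, which cleaves decorin, had a log2 fold change of -0.91 (unadjusted p = 0.0375, adjusted p = 1, edgeR), and Lox, lysyl oxidase, had -0.29 (unadjusted p = 0.194). Of 24 tested ligand and receptor genes to which SLRPs bind, 4 were higher and 20 lower, with a median of -0.14 and 0 at an unadjusted p under 0.05. Egfr (-0.25, unadjusted p = 0.171) and the Wnt co-receptor gene Lrp6 (-0.21, unadjusted p = 0.199, edgeR) had the smallest. Of 20 other proteoglycan genes 6 were higher and 14 lower, with a median of -0.08. The link protein gene Hapln3 had -0.78 (unadjusted p = 0.026, adjusted p = 1, edgeR), and the aggrecan gene Acan had 0.55 (unadjusted p = 0.0869).

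Marker scores, means of log2(CPM + 0.5) over lists of cell type genes, were set beside the SLRP levels. The dermal fibroblast score was 6.23 to 7.42 in the FJDHF group and 6.66 to 7.73 in the Model group, and its means differed by -0.15 (exact permutation p = 0.69). Of its 10 genes 2 were higher and 8 lower in the FJDHF group, and their summed level was 578 to 1266 FPKM against 865 to 1825 FPKM. Over the 9 libraries this score went with Prelp (r = 0.92, rho = 0.92, and r = 0.90 without the 2 libraries farthest from the median) and less with Dcn (r = 0.50, rho = 0.40) and Lum (r = 0.13, rho = -0.02). Prelp also went with the scores of tendon, fascia and cartilage (r = 0.75), macrophage (0.73), nerve sheath (0.73) and white adipocyte genes (0.71). Its r was 0.06 with the T cell score and -0.07 with the neutrophil score. With the dermal fibroblast score as a covariate in edgeR's fit, the log2 fold change of Dcn was -0.37 (unadjusted p = 0.189).

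The basal keratinocyte score went the other way from most SLRP genes. It was 7.44 to 8.80 in the FJDHF group and 7.11 to 9.24 in the Model group (exact permutation p = 0.579), and its 5 genes summed to 569 to 2198 FPKM against 404 to 2830 FPKM. Its r was -0.84 with Dcn (rho = -0.82), -0.83 with Bgn (rho = -0.83), -0.80 with Lum (rho = -0.83) and -0.89 with Omd (rho = -0.73). It was 0.29 with Fmod (rho = 0.22) and -0.23 with Prelp (rho = -0.20). Such values were not particular to basal keratinocyte genes. The hair follicle score gave r = -0.61 with Dcn, -0.67 with Bgn, -0.72 with Lum, -0.66 with Omd and -0.02 with both Fmod and Prelp. MXL1, MR4_5 and MR3 had the highest basal keratinocyte scores and the lowest Dcn. With this score as a covariate, an alternative chosen after the data were seen, the log2 fold change of Dcn was -0.28 and that of Epyc -1.06 (unadjusted p = 0.13, edgeR). The part of tissue makeup in the SLRP levels was not tested.

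The differentiated keratinocyte score was 8.64 to 9.57 in the FJDHF group and 7.45 to 8.79 in the Model group, a difference of 1.15 (exact permutation p = 0.0159, and 0.222 after Benjamini-Hochberg adjustment over 14 lists). All 5 of its genes were higher in the FJDHF group, 4 with an unadjusted p under 0.05, and they summed to 2093 to 3843 FPKM against 735 to 2399 FPKM. Its r with Dcn was -0.55 (rho = -0.55), and -0.07 without the 2 libraries farthest from the median. The score of tendon, fascia and cartilage genes, the other tissues known for Fmod, Prelp and Epyc, differed by 0.01 (exact permutation p = 0.921), with 3 of 8 tested genes higher. The skeletal muscle score had an r of 0.02 with Dcn.

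**Figure D5:**
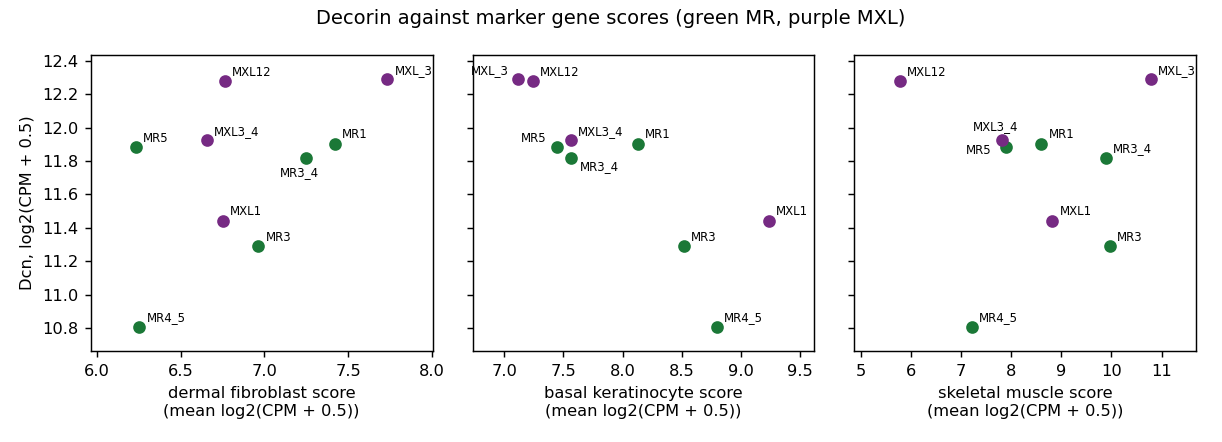
Dcn against 3 marker scores in the 9 libraries, all as log2(CPM + 0.5), with the FJDHF group (MR) in green and the Model group (MXL) in purple. Dcn is low where the basal keratinocyte score is high (r = -0.84, n = 9), and shows r = 0.50 with the dermal fibroblast score and r = 0.02 with the skeletal muscle score.

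Among tested genes with a mean of at least 1 CPM, the 3 whose levels were most like each SLRP gene over the 9 libraries were found by Pearson r. The choice was made among 15715 genes over 9 points that share depth and scaling, so these names only describe these libraries. For Dcn they were Rbm43 (r = 0.98), Srpx (0.97) and A230056P14Rik (0.96). For Bgn they were Hs6st2 (0.97), Gm37233 (0.96) and Ctbs (0.96). For Aspn they were Arhgap12 (0.99), Zfp606 (0.97) and Zfp273 (0.96). For Lum they were Zfp40 (0.98), Fbln5 (0.98), which encodes fibulin-5 of elastic fibres, and Zfp820 (0.98). No member of the family stood among the 3 genes most like another.

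For Fmod the nearest were Ltb (r = 0.95), Ldhb (0.94) and Mxd4 (0.94), and for Prelp they were C4b (0.99), which encodes a complement component, Nfasc (0.97) and Tmem176a (0.96). For Omd they were Zc4h2 (0.98), Pdf (0.96) and Pdgfd (0.96), and for Ogn they were Myh10 (0.96), Mxra7 (0.96) and Cd36 (0.95). For Kera they were Ranbp6 (0.97), Casc4 (0.96) and Parp2 (0.95). For Epyc they were Lhx8 (0.95), Nostrin (0.94) and Heatr5a (0.93), and r with Lhx8 was 0.47 once MXL12 and MXL_3 were left out.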

How the data were processed

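RNA was polyadenylated RNA from back skin, sequenced from both ends as strand-marked libraries. Per the labels, HISAT, StringTie and DESeq2 were used with the genome build mm10 (GRCm38), and versions, annotation and strand setting are not given in the sources used here. The authors deposited whole-number counts per gene without normalization, and FPKM values, counts that the authors scaled for length and depth. A further 9 count columns beside the FPKM values were not used. The column codes are not explained in those sources. The 5 MR and 4 MXL columns were assigned to the FJDHF and Model groups by their numbers and because MX are initials of the Chinese word for model. Codes with more than 1 number (MR3_4, MR4_5, MXL3_4, MXL12) were each taken as 1 library, and whether they hold pooled mice is unknown, so p-values measure only the spread between libraries.

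Counts were tested with edgeR 4.0.16 in R 4.3.3 (filterByExpr, TMM, quasi-likelihood test, no covariate, Benjamini-Hochberg adjustment over all genes), with calls at an adjusted p under 0.05 and a fold of at least 2. Levels are TMM-scaled CPM. Single genes were compared on log2(CPM + 0.5), and ratios to Dcn on FPKM + 0.01, by a two-sided exact permutation test over 126 splits, whose smallest p is 0.00794. Floors cover counting error only.

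The genes and lists were chosen with earlier results of these data known. All 10 SLRP genes were named, with the 3 genes most like each and the 2 of each list with the smallest p. Steps were tested on simulated data. Alternatives were DESeq2 1.42.0, its size factors, limma 3.58.1 on log2(FPKM + 1), other filters, pseudocounts and covariates, a replicate block and leaving out libraries. Sequences were read from GENCODE M21 and RefSeq tables with Python 3.11.15. Figures used matplotlib 3.10.9.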

Additional observations from a re-analysis of the deposited data

Results flagged for a closer look

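Within each group the highest and lowest libraries were examined for the 10 SLRP levels and for the 9 ratios to Dcn, by the distance to the closest other library as a share of the whole range (Dixon's ratio). Critical values were passed in 3 of 38 comparisons. Chance flags about 1 in 20 groups, or 1.9 here. Prelp stood apart in MXL_3 of the Model group, at 276.8 CPM against 182 in the next library (Dixon's ratio 0.838). Kera stood apart in MR5 of the FJDHF group, at 36.9 CPM against 14.4 in the next (0.773). The log2 ratio of Bgn to Dcn stood apart in MR4_5 of the FJDHF group, at -0.16 against -0.99 in the next (0.797).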

How the results depend on the processing

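The number of genes called by edgeR was 0 at each setting, and 2 with DESeq2's Wald test. The number of SLRP genes with an unadjusted p under 0.05 was 1 and became 0 with limma on log2(FPKM + 1), with at least 10 counts in every library (Epyc was then not tested), with the basal keratinocyte score as covariate and without both MXL12 and MXL_3. It was 0 to 1 when single libraries were left out, with 0 without MR3, MR4_5, MXL12 or MXL_3. Without MR5 the gene was Kera and no longer Epyc. The basal keratinocyte covariate, the fit without both libraries and the comparison fit of 6 libraries below were chosen after the data were seen.

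In these fits no SLRP gene other than Epyc and, without MR5, Kera had an unadjusted p under the threshold. Signs turned for Bgn (0.16) and Epyc (0.039) without both MXL12 and MXL_3. Over single libraries left out, the log2 fold change ran from -0.87 to 0.0865 for Kera (above 0 without MXL12) and from -0.37 to 0.029 for Ogn (above 0 without MXL_3). In the permutation test the level difference of Ogn ran from -0.40 to 0.023, and was 0.020 without MXL_3. The log2 ratio to Dcn ran from -0.16 to 0.075 for Lum (0.0043 without MXL3_4), -0.20 to 0.58 for Fmod, -0.025 to 0.37 for Prelp and -0.26 to 0.22 for Kera (-0.018 without MR4_5, -0.25 without MR5). The log2 fold change of Dcn stayed lower in the FJDHF group at all settings, from -0.57 to -0.10.

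A replicate block was built from the numbers 1, 3 and 3_4 that the codes of both groups share, in 6 libraries. Same-numbered libraries deviated from their group means with r of 0.33, 0.06 and -0.14 over 2000 genes, so the numbers were not taken to pair the mice. With the replicate block 0 SLRP genes had an unadjusted p under 0.05 and the log2 fold change of Prelp was 0.059, and with no replicate block in the same 6 libraries these were 0 and 0.023. The cause of these changes was not tested. With 4 and 5 libraries the 95% interval of Dcn spans folds of 0.488 to 1.14, which include no difference. Depth limited only Epyc among the 10 genes, with 8 to 97 counts.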
